A study of Mus musculus with 8 samples.

Results

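The genes described here build ribosomes: they encode RNA polymerase I and its factors, the small nucleolar ribonucleoproteins (snoRNPs) that modify ribosomal RNA, and the proteins that fold, cut and assemble it into the small (40S) and large (60S) subunits. They were chosen by gene symbol, 55 in all, and 54 were measured, out of 19938 genes on the arrays. Noc2l is not analysed here. Each gene is read from the probe set (the group of probes summarised to 1 value) with the highest mean over all arrays, a choice that does not use the groups. The list itself was drawn up with earlier results of these arrays known, so every difference between the groups below is a description, and the adjusted p beside it is no independent test of the list.

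RNA polymerase I transcribes the repeated ribosomal DNA genes in the nucleolus into a long precursor. Box C/D and box H/ACA snoRNPs methylate and pseudouridylate that precursor, a large complex called the small subunit processome forms on it around the U3 snoRNP, and assembly factors then carry the subunits to export. The demand for ribosomes is high in growing and dividing cells, and the transcription factor MYC is known to drive many of these genes.

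The arrays measured total RNA of mouse haematopoietic stem and progenitor cells. c-Kit+ bone marrow cells of C57Bl/6 mice received a lentivirus for overexpression of KLF7 (a zinc finger protein of the Krüppel-like family that regulates transcription) or a control lentivirus. At 72 hours the Lin- c-Kit+ Sca-1+ fraction was collected by sorting, and its RNA was amplified for 4 arrays labelled KLF7 and 4 labelled control. Neither the age of the mice nor the viral promoter nor the content of the control virus is given. The labels also do not say whether each array stands for its own culture or animal, so the spread between arrays may be technical.

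The labels were checked first. Klf7 lay at 11.43, 10.19, 11.05 and 10.52 log2 intensity on the KLF7 arrays numbered 1 to 4 and at 8.53, 10.28, 9.35 and 7.98 on the control arrays, so control 2 lay above KLF7 2. The mean difference was 1.76 (SE 0.46). Exact permutation over the 70 splits of the arrays gave a two-sided p of 0.0571, where no p below 0.0286 is possible. Whether the probe set reads the viral or the endogenous transcript is not given. Kit, which encodes the receptor used for the sort, lay between 9.57 and 10.52 on the arrays numbered 1 to 3 and at 7.85 (KLF7) and 8.33 (control) on those numbered 4. Ly6a, which encodes Sca-1, is not analysed here. Of 8 measured genes that mark the sort gate or stem cells, Kit among them, 7 were higher on average on the KLF7 arrays (median 0.21). The remaining gene was at -0.90, with groups that did not overlap. The B cell markers averaged 4.81 to 5.14 on every array, below the median gene of each array (5.77 to 5.85). Any 2 arrays correlated at 0.936 to 0.982 across genes.

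Ribosome biogenesis genes stood lower on the KLF7 arrays with few exceptions. Of the 54 members, 50 were lower on average, against 49.6% of all genes, and their median difference was -0.35 log2, or 1.27-fold lower, against 0.00 over all genes. The differences ran from -0.92 for Dkc1 to 0.21 for Utp18. The 4 members with a higher mean were Utp18, Pwp2, Dcaf13 and Polr1e. In bulk RNA, fewer cells of a type and less RNA per cell cannot be told apart.

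No member passed the adjusted test. In limma with Benjamini-Hochberg adjustment, 0 of the 54 members had an adjusted p under 0.05, as had 0% of the 19938 genes, and the smallest adjusted p of a member was 0.323. At an unadjusted p under 0.05 there were 18 members, all with a lower mean, against 3.56% of all genes with a lower mean and 4.65% with a higher one. All 4 KLF7 arrays lay below all 4 control arrays for 13 members, against 2.38% of all genes, and above them for 0 members, against 2.83%. Leaving out each array in turn left between 13 and 24 members at an unadjusted p under 0.05, against 2.61% to 4.78% of all genes with a lower mean. Without both arrays numbered 1 the number was 8, against 2.44% of all genes there, and without both numbered 4 it was 20, against 4.49%.

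**Figure D1:**
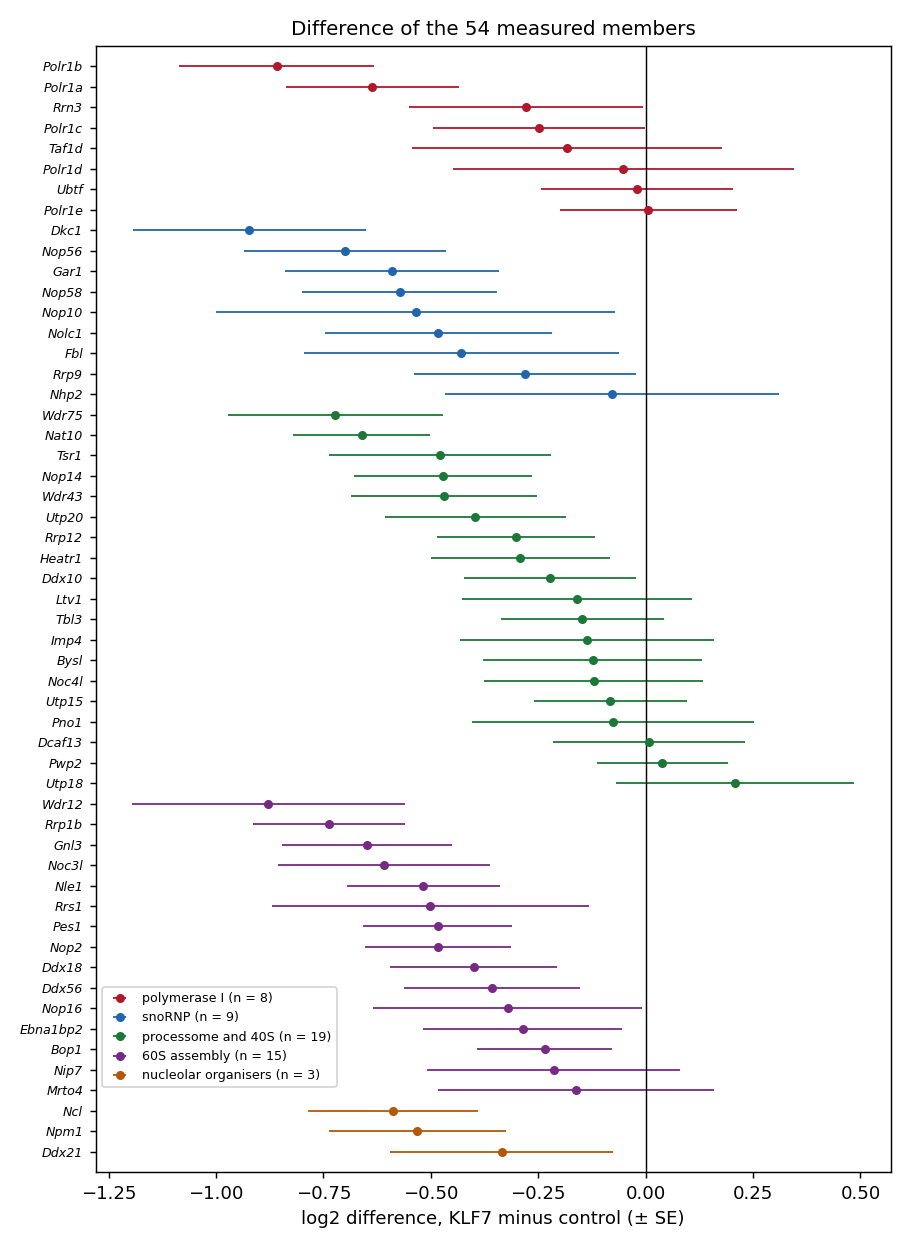
Difference in mean log2 intensity, KLF7 minus control, for each of the 54 measured members (points) with its standard error (bars), coloured by role group and sorted within it. The points lie to the left of 0 for 50 genes, from -0.92 (Dkc1) to 0.21 (Utp18), and no gene passed the adjusted threshold.

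The motif counts over the members use promoter sequence and no array values. Members and motifs were, however, chosen with earlier results of these arrays known. RefSeq promoters of build GRCm38.p6, from 250 bases before to 50 after a transcription start, were at hand for 47 members, 44 of them with a single start. Promoters on a single chromosome were left out for the members before their starts were counted, but kept in the sets they are compared with. The E-box CACGTG, a core bound by MYC with its partner MAX, lay in 11 of these 44 (25.0%), against 7.72% of 14730 protein-coding genes with a single start and 7.15% of all 32851 promoters of this length. By role, it lay in 7 of 16 processome and 40S genes, 3 of 11 genes of 60S assembly and 1 of 7 polymerase I genes (Rrn3, with 2 matches), and in 0 of 8 snoRNP genes. The GC box GGGCGG, a core bound by SP and many KLF factors, lay in 32 of the 44 (72.7%), against 45.3% of the protein-coding genes and 35.7% of all promoters. The CACCC-type box CCACNCCC, another KLF core, lay in 9 (20.5%), against 18.8% and 17.6%. Both strands were searched, the E-box reads the same on both, and matches of the other motifs may overlap. The members' promoters held 58.6% G and C, against 55.4% for the protein-coding genes, a difference that was not held constant. A match is a string of letters and does not show that a factor is bound.

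Of the 11 members with a single start whose KLF7 arrays all lay below the control arrays, 4 held an E-box: Pes1, Nop2, Nle1 and Wdr43. That is 36.4%, against 25.0% of all 44. A GC box lay in 6 of the 11 (54.5%, against 72.7%) and a CACCC-type box in 1 (9.09%, against 20.5%). Whether the 11 differ from the rest was not tested. The genes with an E-box were picked for display by array pattern and motif together. Their stretches from 120 bases before to 30 after the start are shown, 5′ to 3′ on the gene's strand with the E-box in capitals. They lie at chr11:3963855-3964004 (plus strand, Pes1), chr6:125131763-125131912 (plus, Nop2), chr11:82908366-82908515 (minus, Nle1) and chr17:71616095-71616244 (plus, Wdr43). The match begins at base 3, 24 and 18 of the transcript in Pes1, Nle1 and Wdr43 and 60 bases before the start in Nop2.
Pes1: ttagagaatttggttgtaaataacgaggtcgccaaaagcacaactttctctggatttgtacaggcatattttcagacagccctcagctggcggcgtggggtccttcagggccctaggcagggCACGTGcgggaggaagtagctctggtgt
Nop2: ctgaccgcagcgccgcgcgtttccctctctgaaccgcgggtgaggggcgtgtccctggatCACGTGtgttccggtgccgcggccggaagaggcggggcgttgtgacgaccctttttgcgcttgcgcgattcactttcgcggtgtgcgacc
Nle1: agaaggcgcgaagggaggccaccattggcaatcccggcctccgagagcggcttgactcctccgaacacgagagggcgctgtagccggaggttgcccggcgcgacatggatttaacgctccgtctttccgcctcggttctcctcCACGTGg
Wdr43: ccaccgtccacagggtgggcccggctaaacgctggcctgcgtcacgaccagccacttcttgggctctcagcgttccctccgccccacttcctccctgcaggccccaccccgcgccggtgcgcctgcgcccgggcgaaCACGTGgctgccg

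A GC box and no E-box stood in this stretch of Polr1b, Ncl, Gnl3 and Nop56. The stretches of Polr1b (chr2:129100876-129101025, plus strand) and Ncl (chr1:86359426-86359575, minus strand) are shown with the GC box, on either strand, in capitals, since both genes are central to the nucleolus and held 1 and 3 matches.
Polr1b: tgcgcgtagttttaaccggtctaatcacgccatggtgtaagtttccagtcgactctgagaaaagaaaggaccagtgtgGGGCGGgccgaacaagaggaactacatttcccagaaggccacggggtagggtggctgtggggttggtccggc
Ncl: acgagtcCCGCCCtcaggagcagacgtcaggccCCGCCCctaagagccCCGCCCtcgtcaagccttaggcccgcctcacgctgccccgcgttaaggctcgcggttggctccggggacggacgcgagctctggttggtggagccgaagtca

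RNA polymerase I itself was split between its large subunits and the rest, as read from the brightest probe sets. Of the 8 polymerase I genes 7 were lower on average, against 49.6% of all genes (median difference -0.22). At an unadjusted p under 0.05 there were 2, the genes of the pair of large catalytic subunits, against 3.56% of all genes with a lower mean. Polr1b, the second largest subunit, lay at 6.46, 6.31, 5.99 and 7.03 on the KLF7 arrays 1 to 4 and at 7.52, 7.04, 7.19 and 7.48 on the control arrays. The groups did not overlap, although KLF7 4 all but met control 2. The means were 6.45 ± 0.43 and 7.31 ± 0.23 (SD, n = 4 each), a difference of -0.86 (SE 0.23, 1.81-fold lower, adjusted p 0.343 in limma). Polr1a, the largest subunit, lay at 6.83, 7.48, 7.02 and 7.55 against 7.92, 7.75, 7.70 and 8.05, again with no overlap, and differed by -0.64 (SE 0.20, 1.55-fold lower, adjusted p 0.423 in limma). With each array left out in turn the difference stayed between -1.05 and -0.71 for Polr1b and between -0.75 and -0.51 for Polr1a.

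The smaller subunits and the initiation factors showed no such separation in the probe sets used, although a dimmer probe set of Taf1d did (below). Polr1c and Polr1d, which assemble polymerases I and III alike, differed by -0.25 (SE 0.25) and -0.05 (SE 0.40; 0.04 in the dimmer probe set of Polr1d), and Polr1e, part of a subunit pair specific to polymerase I, by 0.01 (SE 0.21). Polr1d spanned the widest range, from 8.31 (KLF7 3) to 10.04 (KLF7 4), with both arrays numbered 4 at the top. Rrn3, which joins the polymerase to its promoter factors and is set by growth signals, differed by -0.28 (SE 0.27). Ubtf, the factor that coats the ribosomal DNA, differed by -0.02 (SE 0.22), with 7.69, 8.22, 7.99 and 8.57 on the KLF7 arrays and 8.26, 8.06, 7.83 and 8.40 on the control arrays, which overlap. The sign of Polr1d and Ubtf turned without KLF7 1, without KLF7 3 or without control 4, among other settings, so neither has a direction here, and that of Polr1e turned without KLF7 4 (-0.14). Polr1c was at -0.11 without KLF7 3 and at -0.38 without control 2, and Rrn3 at -0.10 without KLF7 1 and at -0.46 without control 2. For the polymerase I genes as a group the median was -0.12 without KLF7 1, -0.14 without KLF7 3 and -0.36 without KLF7 4.

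Taf1d, a subunit of the promoter selectivity factor, depended on the probe set read. It had 9 probe sets, of which 4 held identical values, and the brightest, used by the rule, differed by -0.18 (SE 0.36) and is annotated with a single cDNA and no RefSeq mRNA. Its difference was 0.09 without KLF7 4. The probe set annotated with the RefSeq mRNAs lay at 7.85 ± 0.23 on the KLF7 arrays and 8.52 ± 0.31 on the control arrays (SD, n = 4 each), a difference of -0.66. The remaining 7 differed by -0.53 to -0.95. In the dimmest the groups did not overlap (KLF7 6.03 to 6.59, control 7.02 to 7.28). In every other probe set of Taf1d they overlapped. Which transcript each probe set reads was not tested.

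The snoRNP genes were lower without exception. All 9 were lower on average, against 49.6% of all genes (median difference -0.54). At an unadjusted p under 0.05 there were 4, against 3.56% of all genes with a lower mean. Dkc1, the pseudouridine synthase of box H/ACA snoRNPs and a part of telomerase, showed the lowest difference of all members. It lay at 6.08, 7.10, 6.75 and 7.40 on the KLF7 arrays and 7.72, 7.53, 7.65 and 8.12 on the control arrays, with no overlap and KLF7 1 far down. The difference was -0.92 (SE 0.27, 1.90-fold lower, adjusted p 0.387 in limma), and -0.67 without KLF7 1. Gar1, another H/ACA core protein, differed by -0.59 (SE 0.25), with KLF7 2 (8.07) inside the control range of 7.92 to 8.24. Nop10 and Nhp2, which complete the H/ACA core, differed by -0.54 (SE 0.46) and -0.08 (SE 0.39). Both were at their highest on the arrays numbered 4, and both moved with single arrays: Nop10 was at -0.18 without control 4 and at -0.90 without KLF7 4, and Nhp2 at 0.28 without KLF7 1 and at -0.34 without KLF7 4.

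Among the box C/D proteins the scaffold pair differed by similar amounts. Nop56 lay at 8.89, 9.18, 8.38 and 9.38 on the KLF7 arrays and 9.65, 9.64, 9.44 and 9.91 on the control arrays, which do not overlap, a difference of -0.70 (SE 0.23, 1.62-fold lower, adjusted p 0.448 in limma). Nop58, its partner, lay at 7.93, 8.26, 7.52 and 8.39 against 8.48, 8.35, 8.64 and 8.91, with KLF7 4 just above control 2. Its difference was -0.57 (SE 0.23, adjusted p 0.530 in limma). Fbl, the methyltransferase fibrillarin, differed by -0.43 (SE 0.37) in its brighter probe set and by -0.27 in the dimmer. Nolc1, a chaperone of snoRNPs, was at -0.48 (SE 0.26), and Rrp9, a protein of the U3 snoRNP, at -0.28 (SE 0.26). Fbl was at -0.17 without KLF7 3 and at -0.68 without KLF7 4, and Rrp9 at -0.12 without KLF7 1 and at -0.50 without control 2. The median of the 9 was -0.35 without KLF7 1 and -0.33 without control 4.

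**Figure D2:**
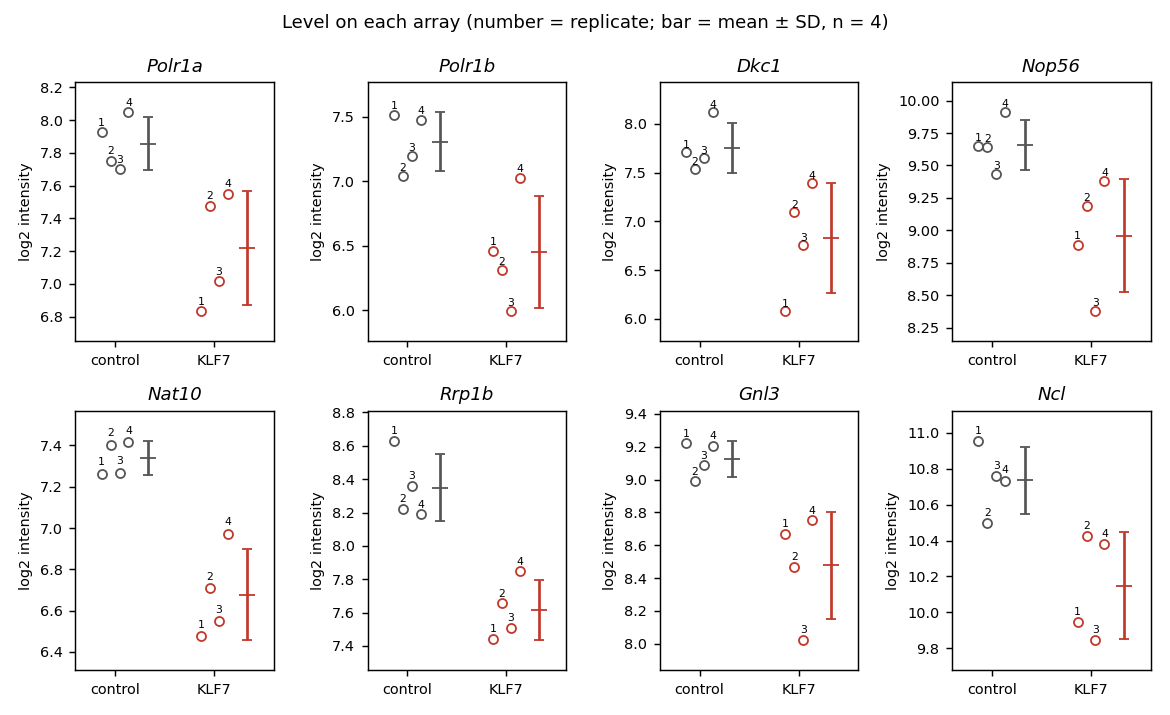
Log2 intensity of Polr1a, Polr1b, Dkc1, Nop56, Nat10, Rrp1b, Gnl3 and Ncl on each control array (grey) and KLF7 array (red), numbered by replicate, with the mean ± SD of each group (n = 4) at its right; each panel has its own axis, which does not start at 0. All 8 genes are among the 13 of 54 members without overlap, so the separation in every panel follows from the choice of genes. In each panel the highest KLF7 array lies below the lowest control array, and the gap is narrowest for Polr1b (7.03 against 7.04).

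The processome and 40S genes were the most mixed group. Of 19 genes 16 were lower on average, against 49.6% of all genes, and the median difference was -0.16. At an unadjusted p under 0.05 there were 3 (Nat10, Wdr75 and Nop14), against 3.56% of all genes with a lower mean. Nat10, the enzyme that acetylates cytidines of ribosomal RNA, had the least spread among these. It lay at 6.48, 6.71, 6.55 and 6.97 on the KLF7 arrays and at 7.26, 7.40, 7.27 and 7.42 on the control arrays, a clear gap, and differed by -0.66 (SE 0.16, 1.58-fold lower, adjusted p 0.323 in limma), with -0.76 to -0.59 when each array was left out. Nop14, a processome protein, differed by -0.47 (SE 0.21), with KLF7 4 (8.07) inside the control range.

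The processome is built from named subcomplexes, and the members of UTP-A and UTP-B described next differed. Neither set is a whole subcomplex, since further genes such as Utp4, Utp6, Wdr3 and Wdr36 are counted with the other processome factors below. In UTP-A, which binds the precursor first, all 4 members had a lower mean. Wdr75 lay at 7.41, 7.63, 6.91 and 8.08 against 8.22, 8.12, 8.02 and 8.56 and differed by -0.72 (SE 0.25, adjusted p 0.461 in limma). Wdr43 lay at 8.77, 8.75, 8.22 and 9.04 on the KLF7 arrays and 9.05, 9.04, 9.06 and 9.50 on the control arrays and differed by -0.47 (SE 0.22). KLF7 4 lay just below the lowest control array and KLF7 3 far below it. Heatr1 was at -0.29 (SE 0.21) and Utp15 at -0.08 (SE 0.18). Without KLF7 3, Wdr43 was at -0.31, Heatr1 at -0.15 and Utp15 at 0.06. In UTP-B, by contrast, only Tbl3 of 3 members had a lower mean (-0.15, SE 0.19), and Pwp2 was at 0.04 (SE 0.15). Tbl3 was at -0.03 without KLF7 3, and Pwp2 at -0.08 without KLF7 4. Utp18, the third member, was at 0.21 (SE 0.28). There KLF7 1 lay at 8.47 and the remaining arrays between 6.94 and 7.56, and leaving out KLF7 1 gave -0.07. The difference between these members of UTP-A and UTP-B was not tested.

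Factors of the later pre-40S particle were divided. Bysl, Pno1 and Ltv1, which stay with the subunit up to its export or final cleavage, differed by -0.12 (SE 0.25), -0.08 (SE 0.33) and -0.16 (SE 0.27), and the sign of Bysl and Pno1 turned without KLF7 1 and that of all 3 without control 4. Tsr1, another pre-40S factor, was at -0.48 (SE 0.26) and the export factor Rrp12 at -0.30 (SE 0.18). Without KLF7 3, Tsr1 was at -0.21. The median of the 19 processome and 40S genes moved with single arrays, to -0.06 without KLF7 3, -0.10 without control 4, -0.23 without KLF7 2, -0.27 without control 2 and -0.37 without KLF7 4.

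Genes of 60S assembly were lower without exception. All 15 were lower on average, against 49.6% of all genes (median -0.48). At an unadjusted p under 0.05 there were 7, against 3.56% of all genes with a lower mean. Of these, 5 had all KLF7 arrays below all control arrays, against 2.38% of all genes. Rrp1b, a nucleolar protein of the pre-60S particle, lay at 7.44, 7.66, 7.51 and 7.85 against 8.63, 8.22, 8.36 and 8.19. A wide gap separated the groups, and the difference was -0.74 (SE 0.18, 1.67-fold lower, adjusted p 0.323 in limma). Gnl3, which encodes the nucleolar GTPase nucleostemin, known from stem cells, lay at 8.67, 8.47, 8.02 and 8.75 against 9.22, 8.99, 9.09 and 9.21 and differed by -0.65 (SE 0.20, 1.57-fold lower, adjusted p 0.404 in limma). Nop2, a methyltransferase of the large ribosomal RNA, lay at 6.82, 7.17, 7.10 and 7.45 against 7.71, 7.62, 7.56 and 7.59 and differed by -0.48 (SE 0.17). Nle1, a late pre-60S factor, differed by -0.52 (SE 0.18) with KLF7 1 and KLF7 4 the lowest (6.57 each).

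The PeBoW complex, which is needed to mature the large subunit RNA, was lower in its 3 members. Pes1 lay at 7.04, 7.20, 7.01 and 7.39 against 7.39, 7.73, 7.56 and 7.89, so that KLF7 4 and control 1 all but met, and differed by -0.48 (SE 0.17, adjusted p 0.474 in limma). Wdr12 lay between 6.04 (KLF7 1) and 7.65 (KLF7 2) on the KLF7 arrays and between 7.58 (control 2) and 8.17 (control 3) on the control arrays, so the groups overlapped. Its difference of -0.88 (SE 0.32) was -0.55 without KLF7 1. Bop1 was at -0.23 (SE 0.16), and at -0.15 without KLF7 3. Of the other pre-60S genes Noc3l differed by -0.61 (SE 0.25; -0.40 without KLF7 1), and Mrto4, with the smallest difference of the group, by -0.16 (SE 0.32), with 0.08 without control 4. The helicase gene Ddx18 was at -0.40 (SE 0.20) in its brighter probe set and at -0.22 in the dimmer.

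The abundant organisers of the nucleolus followed the same direction. Nucleolin, from Ncl, binds the ribosomal RNA precursor, and nucleophosmin, from Npm1, forms the outer layer of the nucleolus and is often mutated in myeloid leukaemia. Ncl lay at 9.94, 10.43, 9.84 and 10.38 on the KLF7 arrays and 10.95, 10.50, 10.76 and 10.73 on the control arrays and differed by -0.59 (SE 0.20, 1.50-fold lower, adjusted p 0.449 in limma). Npm1 lay at 9.81, 10.23, 9.50 and 10.26 against 10.33, 10.54, 10.56 and 10.50 and differed by -0.53 (SE 0.21, adjusted p 0.520 in limma). In neither gene did the groups overlap, and the control arrays of Npm1 stayed within an SD of 0.10. Ddx21, a nucleolar helicase that also works with polymerase II, differed by -0.33 (SE 0.26) with overlap, and by -0.17 without KLF7 3.

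Single arrays shaped the pattern. The arrays KLF7 1 and KLF7 3 were the lowest of the 8 for 20 and 29 members, 49 of 54 together, against 26.6% of all genes. Control 4 was the highest of the 8 for 26 members, KLF7 4 for 12 and control 1 for 11. Averaged over the 54 members, KLF7 1 to 4 stood at 7.29, 7.73, 7.19 and 7.94 and the control arrays at 7.90, 7.69, 7.85 and 8.16, so that KLF7 2 and KLF7 4 fell within the control range. Within each group the array numbered 4 was the highest for most members, 43 among KLF7 and 37 among control.

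**Figure D3:**
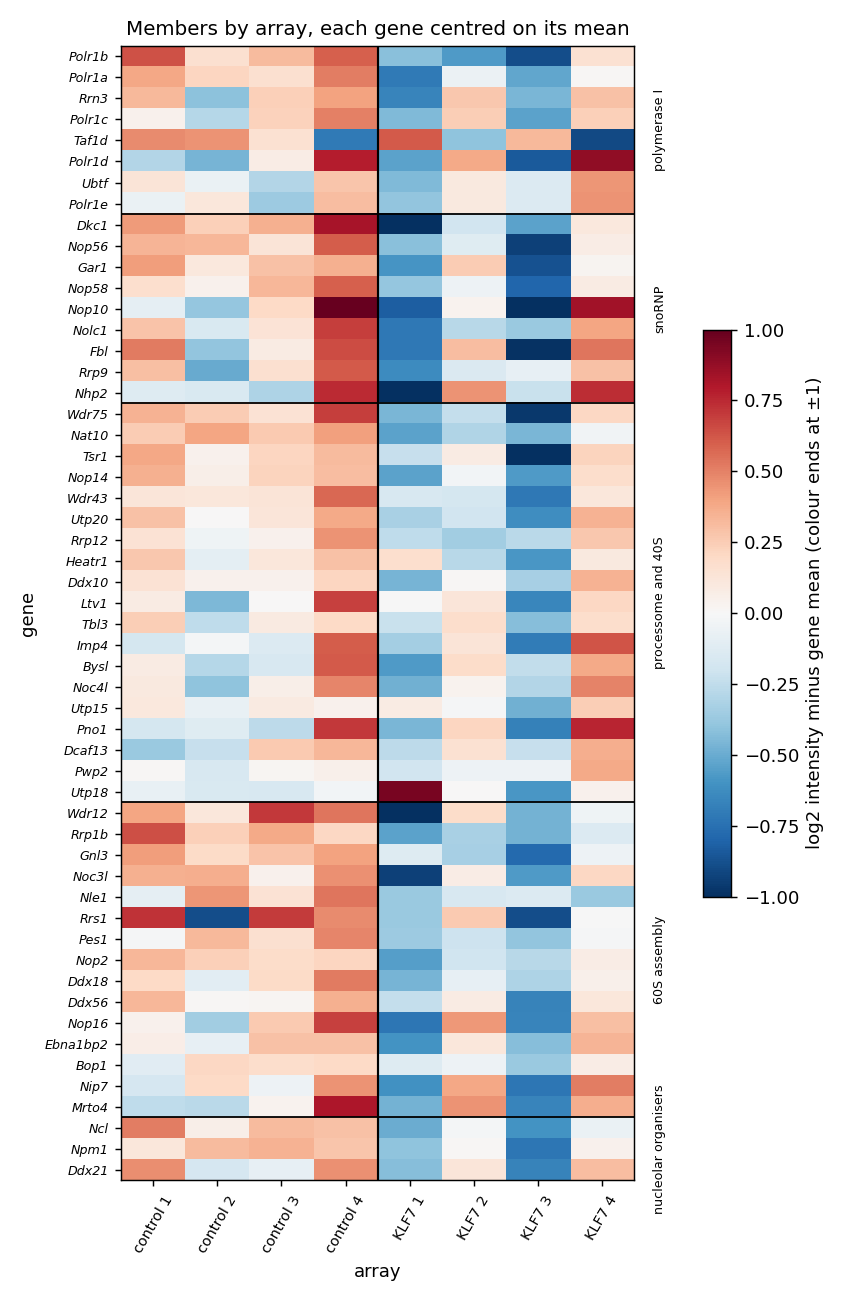
Log2 intensity of the 54 measured members (rows, by role group and then by difference) on the 4 control and 4 KLF7 arrays (columns), each gene centred on its mean over the 8 arrays; blue is below and red above that mean, with the colour ending at ±1. KLF7 1 and KLF7 3 are blue in most rows, the lowest of 8 for 49 of the 54 genes, and control 4 is red in most.

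Same-numbered arrays were then compared, although the labels do not say that a number marks a shared culture. KLF7 1 lay below control 1 for 51 of 54 members (median -0.62), KLF7 3 below control 3 for 50 (median -0.68) and KLF7 4 below control 4 for 41 (median -0.23). KLF7 2 lay below control 2 for 25, with a median of 0.05. Over all genes the KLF7 array was the lower for 51.1%, 48.8%, 46.4% and 50.3% in numbers 1 to 4. All 4 comparisons were lower for 22 members, against 9.68% of all genes. By role, these 22 were 2 of 8 polymerase I genes, 4 of 9 snoRNP genes, 7 of 19 processome and 40S genes, 7 of 15 genes of 60S assembly and 2 of 3 organisers.

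The numbers also set the level of Klf7 beside the members. Klf7 itself differed by 2.91, -0.10, 1.70 and 2.54 between same-numbered arrays 1 to 4, so that number 2 showed no excess of Klf7 and no lower median of the members. Within the groups, KLF7 1 and KLF7 3 had the highest Klf7 and the lowest members' means, and control 2, the control array with the most Klf7, was the lowest control array for 33 members. Number 4 departs from this order, with a Klf7 difference of 2.54 beside a members' median of -0.23. This comparison was added after the values were seen and carries no test.

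**Figure D4:**
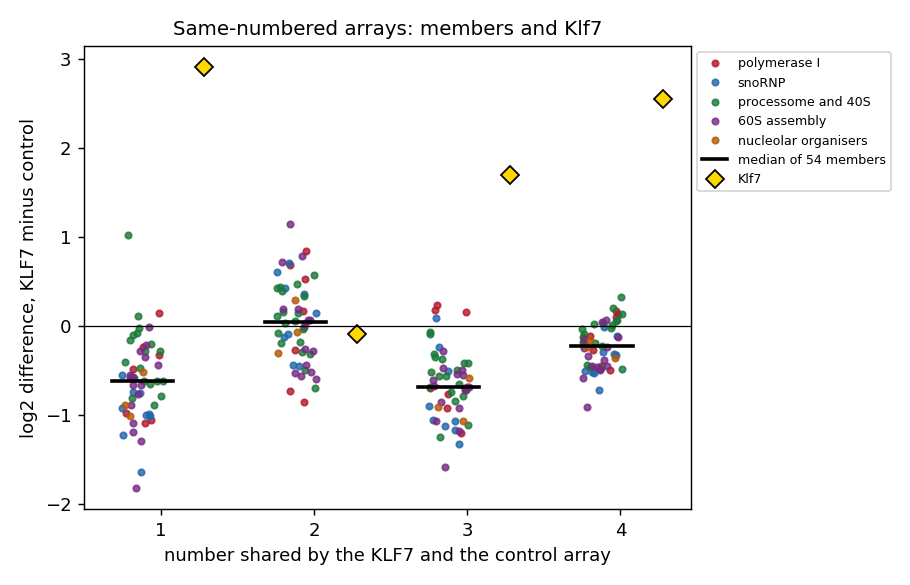
Log2 difference between the KLF7 and the control array of the same number for each of the 54 members (points, coloured by role group), with the members' median (black line) and the difference of Klf7 (diamond). The medians are -0.62, 0.05, -0.68 and -0.23 and Klf7 lies at 2.91, -0.10, 1.70 and 2.54 for numbers 1 to 4.

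The rest of the pathway, taken from lists by function, gave a like picture for assembly factors. It gave a weaker one for the lists of polymerase genes, whose make-up is given below. Of 36 other processome and 40S factors 30 had a lower mean (median -0.24), with 5 at an unadjusted p under 0.05, all lower. Of 41 other factors of 60S assembly 36 had a lower mean (median -0.31), with 9 lower and 0 higher at that p. Over all genes 3.56% were lower and 4.65% higher at that p. Mdn1, the giant ATPase that strips factors from the pre-60S particle, lay at 6.70, 6.96, 6.68 and 7.23 against 7.71, 7.74, 7.55 and 7.36, with no overlap (-0.70, SE 0.18, adjusted p 0.327 in limma). Ftsj3, a methyltransferase, and Surf6, a nucleolar protein, were at -0.62 (SE 0.19) and -0.55 (SE 0.15). Wdr46 and Utp4 of the processome were at -0.68 (SE 0.22) and -0.69 (SE 0.24). None passed the adjusted threshold.

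Partners that assemble snoRNPs were lower for 11 of 13 (median -0.44), among them Shq1, the chaperone of dyskerin, at -0.50 (SE 0.18). Exosome subunits and nucleases of ribosomal RNA were lower for 18 of 24 (median -0.17), with the exosome nuclease gene Dis3 at -0.56 (SE 0.17). Other polymerase I machinery was lower for 8 of 12 genes (median -0.04), and polymerase III genes for 10 of 14 (median -0.09). Neither list had a gene at an unadjusted p under 0.05, against 3.56% of all genes lower and 4.65% higher. The 12 include Polr2e, Polr2f, Polr2h, Polr2k and Polr2l, subunits that polymerase II also uses. They lack the polymerase I subunits Polr1f, Polr1g and Polr1h, which are not analysed here. The polymerase III list includes Maf1, a repressor of that polymerase. Cytosolic ribosomal protein genes, the products' partners in the subunits, were lower on average for all 54 measured of 78 listed, with a median of -0.21. At an unadjusted p under 0.05 there were 3 of them, against 3.56% of all genes with a lower mean. The groups did not overlap for 0 of them, against 2.38% of all genes with the KLF7 arrays below and 2.83% with them above. KLF7 2 lay below control 2 for 5 of these 54 (median 0.20), and the list's mean was 10.69, 11.40, 10.91 and 11.39 on the KLF7 arrays and 11.18, 11.17, 11.34 and 11.59 on the control arrays, so KLF7 2 and KLF7 4 stood above all control arrays but control 4.

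**Figure D5:**
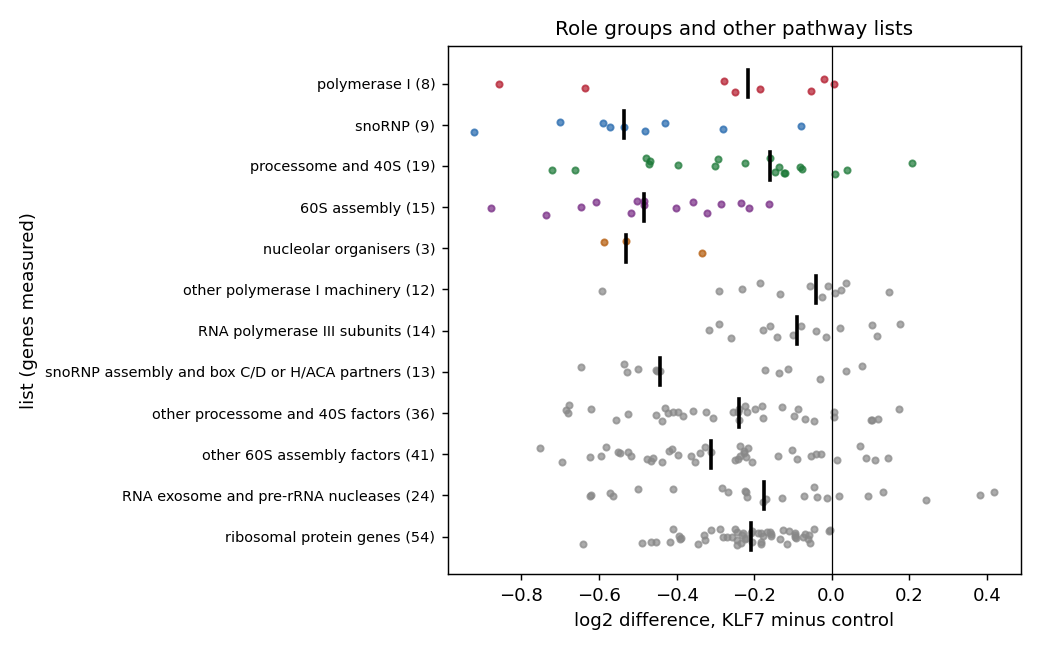
Log2 difference, KLF7 minus control, of each gene (points) in the 5 role groups (coloured) and in 7 other lists of the pathway (grey), with the median of each list (black line) and the number of genes measured in parentheses. The medians run from -0.54 (snoRNP) to -0.04 (other polymerase I machinery).

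Myc, the best known activator of this programme, was lower on every KLF7 array. It lay at 10.41, 10.69, 10.83 and 10.87 on the KLF7 arrays and at 11.52, 11.37, 11.29 and 11.13 on the control arrays, with no overlap, a difference of -0.63 (SE 0.17, 1.54-fold lower, adjusted p 0.368 in limma). Among the KLF7 arrays Myc and the members' mean were both highest on KLF7 4 (10.87 and 7.94). Myc was lowest on KLF7 1 (10.41), and the members' mean on KLF7 3 (7.19). Among the control arrays, control 4 had the lowest Myc (11.13) and the highest members' mean (8.16). The part of Myc in the differences of the members was not tested. Over the settings that left out an array the difference of Myc lay between -0.69 and -0.53.

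Cell type markers and proliferation genes differed between the same arrays. Of 20 markers of monocytes, macrophages and dendritic cells 15 were higher on average on the KLF7 arrays, against 10040 of all 19938 genes. At an unadjusted p under 0.05, 9 were higher and 0 lower, against 4.65% and 3.56% of all genes. The list's mean level was 7.71 to 8.65 on the KLF7 arrays and 7.05 to 8.14 on the control arrays, highest on KLF7 1. Of 24 proliferation genes 19 were lower on average, against 49.6% of all genes (median -0.20). Their mean levels were 7.97, 8.24, 7.90 and 8.47 on the KLF7 arrays and 8.17, 8.19, 8.32 and 8.48 on the control arrays. These levels were lowest on KLF7 1 and KLF7 3, as for the members. Mast cell and basophil markers averaged 6.38 and 6.09 on the KLF7 and control arrays numbered 4, against 8.80 to 9.92 on the others. Granulocyte markers, 5 of 11 lower on average, averaged from 7.33 (control 4) to 9.73 (KLF7 3). Megakaryocyte markers, 4 of 5 lower on average, averaged 7.96, 8.94, 7.92 and 9.31 on the KLF7 arrays and 8.52, 8.29, 8.30 and 9.80 on the control arrays, and like the members were lowest on KLF7 1 and KLF7 3 and highest on control 4. Erythroid markers, all 5 lower on average (median -0.26), averaged between 5.77 and 6.69 on each array. T and NK cell markers, 3 of 8 lower, averaged between 4.89 and 5.71, and no marker is listed at 0. The part of these lists in the differences of the ribosome biogenesis genes was not tested.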

How the data were processed

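Total RNA was amplified, labelled with biotin and hybridised to 1 single-colour array per sample, 4 labelled KLF7 and 4 control. The deposited values are probe set intensities on a linear scale, from 2.20 to 15393, summarised by the authors with RMA; the submitters' processing notes name Affymetrix Expression Console. No version or genome build is stated there. RMA and the amplification can compress differences of dim genes. Log2 was taken. Of 35554 probe sets, 21789 carried 1 gene symbol, and the highest-mean one per gene gave 19938 genes. These were fitted in limma 3.58.1 (R 4.3.3; lmFit, then eBayes with trend, no term but group, two-sided, Benjamini-Hochberg over all genes, threshold 0.05), after testing on simulated data. Depth does not apply to arrays; their number limits the precision.

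The members, role groups, lists and motifs were chosen with earlier results of these data known. All 8 polymerase I genes were named, and in the other groups the 4 with the smallest p, the highest and lowest difference and every gene without overlap; other lists gave up to 3 genes, and Myc was always named. Further members were named after their values were seen. Alternatives left out arrays, blocked on the replicate number, renormalised, weighted arrays, left out the dimmer 50% of genes, averaged probe sets and dropped the trend. Promoters are RefSeq's, build GRCm38.p6. Figures were drawn with matplotlib 3.10.9.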

Additional observations from a re-analysis of the deposited data

Results flagged for a closer look

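In 5 of 108 sets of 4 arrays (each of the 54 members in each group), a single array lay farther from the others than Dixon's criterion allows, which chance gives in about 1 of 20. Control 4 was high for Wdr43 (9.50 against 9.04 to 9.06) and for Pno1 (7.71 against 6.74 to 6.88), and KLF7 4 was high for Rrp12 (6.85 against 6.23 to 6.33). Control 1 was low for Bop1 (6.53 against 6.82 to 6.85). Control 2 was low for Rrs1, which encodes a protein that brings the 5S ribonucleoprotein into the large subunit (6.00 against 7.36 to 7.61).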

How the results depend on the processing

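No member had an adjusted p under 0.05 in any of the 18 alternatives. The number at an unadjusted p under 0.05 with a lower mean was 13 to 24 when 1 array was left out, 8 without both arrays numbered 1 and 20 without both numbered 4, both chosen after seeing the data, and 17 to 22 in the others; the cause was not tested. The members with a lower mean numbered 41 (without control 4) to 52. The median over members lay between -0.48 (without KLF7 4) and -0.23 (without KLF7 3). Of the 54 members, 39 kept their sign in all 18 settings and 15 did not, none of them among the 18 at an unadjusted p under 0.05. Another probe set gave -0.66 for Taf1d and -0.22 for Ddx18. The deviations of same-numbered arrays from their group means correlated at 0.35, 0.36 and 0.70 for numbers 1, 3 and 4, each the highest for its KLF7 array, and at -0.13 for number 2, so the numbers were not taken as pairs. With the replicate number as a block, 22 members had an unadjusted p under 0.05 and a lower mean (5.92% of all genes), 0 passed after adjustment (smallest adjusted p 0.0663 in limma, for Polr1b), and 90 of all genes did (0.451%), among them 2 monocyte, macrophage and dendritic cell markers and 1 granulocyte marker, against 0 without the block. With 4 arrays a group, differences as small as most of those given here are hard to tell from the spread between arrays.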

Other observations

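Among 15 regulators of ribosome biogenesis, Rb1, which encodes the retinoblastoma protein, a repressor of E2F targets that also restrains polymerases I and III, was higher on every KLF7 array. It lay at 9.32, 9.004, 9.48 and 9.42 on the KLF7 arrays and at 8.35, 8.55, 8.69 and 8.57 on the control arrays, a difference of 0.77 (SE 0.18, 1.70-fold higher, adjusted p 0.323 in limma). The range with each array left out in turn was 0.70 to 0.87. Mxd1, a partner of MAX that opposes MYC, was at 0.33 (SE 0.25) with overlap. The list had a median of 0.02, with 6 lower and 9 higher. It mixes activators such as Myc with opposing genes such as Mxd1 and Rb1, so neither figure gives a direction of regulation.

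The proliferation genes did not all share a direction. Mcm7 and Mcm5, which encode subunits of the replicative helicase, were at -0.54 (SE 0.21) and -0.46 (SE 0.21), while Birc5, a gene of mitosis and survival, was at 0.63 (SE 0.25). None of these passed after adjustment (0.519, 0.617 and 0.520 in limma).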
